A study of Mus musculus with 3 samples.

Results

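Cathepsins are the proteases of the lysosome and cystatins are their inhibitors, and 10 of these genes were followed in myeloid cells of the mouse hippocampus. The members were taken by symbol from the 31053 genes listed: the cysteine cathepsins Ctsb, Ctsc, Ctsh, Ctsl, Ctss and Ctsz, the aspartic protease Ctsd, the serine carboxypeptidase Ctsa, and the cystatins Cst3 and Cst7. No measured value entered this choice, but earlier results of these data were known when it was made.

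Cathepsins are made as inactive precursors, carried to the lysosome on mannose 6-phosphate and other sorting receptors, and activated there by cleavage at acid pH. Microglia use them to digest what they engulf and to trim the invariant chain of MHC class II. Cystatin C, the product of Cst3, is secreted in large amounts by microglia, whereas cystatin F, the product of Cst7, is kept largely inside immune cells and acts on cathepsin C and related enzymes. Cst7 and several cathepsin genes are widely used as markers of disease-associated microglia.

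The cells were tdTomato+ cells from both hippocampi of reporter mice with the genotype Cx3cr1CreERT2/+; Rosa26tdTomato/+; NestinTK-eGFP/+, whose ages are not given in the sources used here. All animals carried every allele. They have a tamoxifen-inducible Cre in 1 Cx3cr1 allele, which is active in microglia and in other macrophages, a reporter that Cre switches on, and a Nestin transgene with a thymidine kinase and eGFP. Tamoxifen was given to all of them, 100 mg/kg for 4 days, and the labels name no other treatment. The 12 animals (6 of each sex) form a single group in 3 runs and the labels do not say which animals each run held, so each comparison below is between kinds of cells within the runs (n = 3 runs). With the run as a block, p-values measure how far the difference between kinds of cells varies over runs, which may be technical. In comparisons with reference microglia all genes shared this spread, so a gene's own spread over runs does not enter its p-value.

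Runs 1, 2 and 3 held 34140879, 24717907 and 24225612 UMIs, each a captured RNA molecule, and 6993, 6720 and 6078 cells passed the filters. The runs shared 7 to 10 cell barcodes in pairs, and their summed counts differed by a chi-square per degree of freedom of 28.2 to 65.0. No doublet caller was run. Doublets were followed as cells with UMIs of both Xist and Y-linked genes, which a single cell does not normally hold together. Cells were sorted into populations by marker genes that exclude the 10 members. Reference microglia, with at least 4 of 8 microglia markers and no other marker set, made up 94.5% of kept cells (18702 of 19791), and all 8 markers were present in them at a summed level of 28349 to 36352 CPM (UMIs of a gene scaled to the total UMIs of the population). Border macrophage markers summed to 3.34 to 6.77 CPM there.

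The small populations were cells with at least 3 of 8 lipid and phagocyte markers (Spp1, Lpl, Gpnmb, Itgax, Lgals3, Fabp5, Ch25h, Igf1; 38, 30 and 26 cells in runs 1, 2 and 3), cells rich in the chemokines Ccl3 and Ccl4 (30, 34 and 68), cells with at least 4 of 10 interferon-stimulated genes (49, 23 and 25), cells with at least 3 of 7 border macrophage markers such as Mrc1 and Pf4 (82, 35 and 54), and cells with at least 3 of 4 MHC class II genes (70, 41 and 63). The chemokine and interferon populations hold cells of that marker set alone. The other populations had fewer than 20 such cells in a run, so they hold every cell that passed, including cells of several sets. The lipid-marker, chemokine and interferon cells also had to carry at least 3 microglia markers. These names are those of the marker sets and may divide cells differently from the study.

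The members lie on 6 chromosomes of GRCm38, and coordinates are of whole genes in GENCODE M21. Cst3 (chromosome 2, 148871722 to 148875692), Cst7 (chromosome 2, 150570415 to 150578944), Ctsa (chromosome 2, 164832873 to 164841032) and Ctsz (chromosome 2, 174427493 to 174439039) are on the same chromosome. Ctsc (chromosome 7, 88278085 to 88310888) and Ctsd (chromosome 7, 142375911 to 142388038) share another. Ctsb is at chromosome 14, 63122462 to 63145923, Ctsh at chromosome 9, 90054152 to 90076089, Ctsl at chromosome 13, 64359337 to 64370890 and Ctss at chromosome 3, 95526786 to 95556403. All are protein-coding genes.

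The promoters were searched for the palindrome CACGTG, and the matches are shown as a description of members whose levels are compared further on. This hexamer is the core of the element recognised by TFEB, TFE3 and MITF, transcription factors of lysosomal genes. The search, also for its longer form TCACGTGA that contains it, covered both strands of 300-base windows around RefSeq gene starts (GRCm38.p6), in which 8 of the 10 members were found, all but Ctsb and Ctsh. CACGTG was in 7.15% of all 32851 windows and in 3 of the 9 windows of members, those of Ctsa, Ctsd and Ctsl, and TCACGTGA was in 0.974% of all windows and in 2 of the 9. The sequences that follow show these matches in capitals, 5′ to 3′ on the gene's strand. Distances are to the RefSeq starts, which differ from the ends of the GENCODE genes listed above. The sites of Ctsa and Ctsl and the nearer site of Ctsd lie inside those GENCODE genes. Ctsc, Ctsz and Cst7, which rose in the same cells as these 3 genes, had no match. A match is a description of the letters and no evidence of binding, and the windows without a match say nothing about the factors. A further match in Ctsa, after the start, is not shown.
Ctsa, chr2:164833749-164833772, plus strand, 13 to 6 bases before the start: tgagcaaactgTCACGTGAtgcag
Ctsd, chr7:142387908-142387937, minus strand, 99 to 92 bases before the start: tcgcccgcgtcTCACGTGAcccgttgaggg
Ctsd, chr7:142388055-142388077, minus strand, 245 to 240 bases before the start: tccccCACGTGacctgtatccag
Ctsl, chr13:64370739-64370768, minus strand, 236 to 231 bases before the start: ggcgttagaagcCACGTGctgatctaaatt

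In reference microglia the cathepsins were counted in every run, and the levels differed between runs for some members more than for others. Ctsd, which cleaves proteins in the lysosome as an aspartic protease, was at 6809.8, 9593 and 7044 CPM in runs 1, 2 and 3 (7816 ± 1544, SD). Ctss, a cysteine protease that stays active at neutral pH and processes the invariant chain, was at 4894, 6113 and 5304 CPM. Ctsb, an endo- and exopeptidase of the lysosome, was at 1164, 1901 and 1229.7 CPM. Run 2 was the highest for all 3 genes, and for Ctsb and Ctsd runs 1 and 3 lay close together.

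Ctsz, a carboxypeptidase, was at 1585, 1847 and 1479 CPM and Ctsl, an endopeptidase, at 1456, 1536 and 1457 CPM. Ctsl was the steadiest across runs. Ctsh, an aminopeptidase, was at 853, 1025 and 904 CPM, Ctsa, which also stabilises the lysosomal neuraminidase complex, at 573, 869 and 572 CPM, and Ctsc, a dipeptidyl peptidase that activates granule proteases, at 421, 527 and 372 CPM. The plot of levels by run shows that run 2 was also highest for these 5 genes.

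Of the inhibitors, Cst3 was at 56879, 63759 and 53688 CPM in reference microglia (58108 ± 5147, SD), from 4416272 UMIs. Cst7 was at 6.90, 8.21 and 5.70 CPM, from 529 UMIs in 18702 cells. Cst3 is thus counted with little sampling error in every population, while Cst7 rests on few UMIs in all of them.

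**Figure D1:**
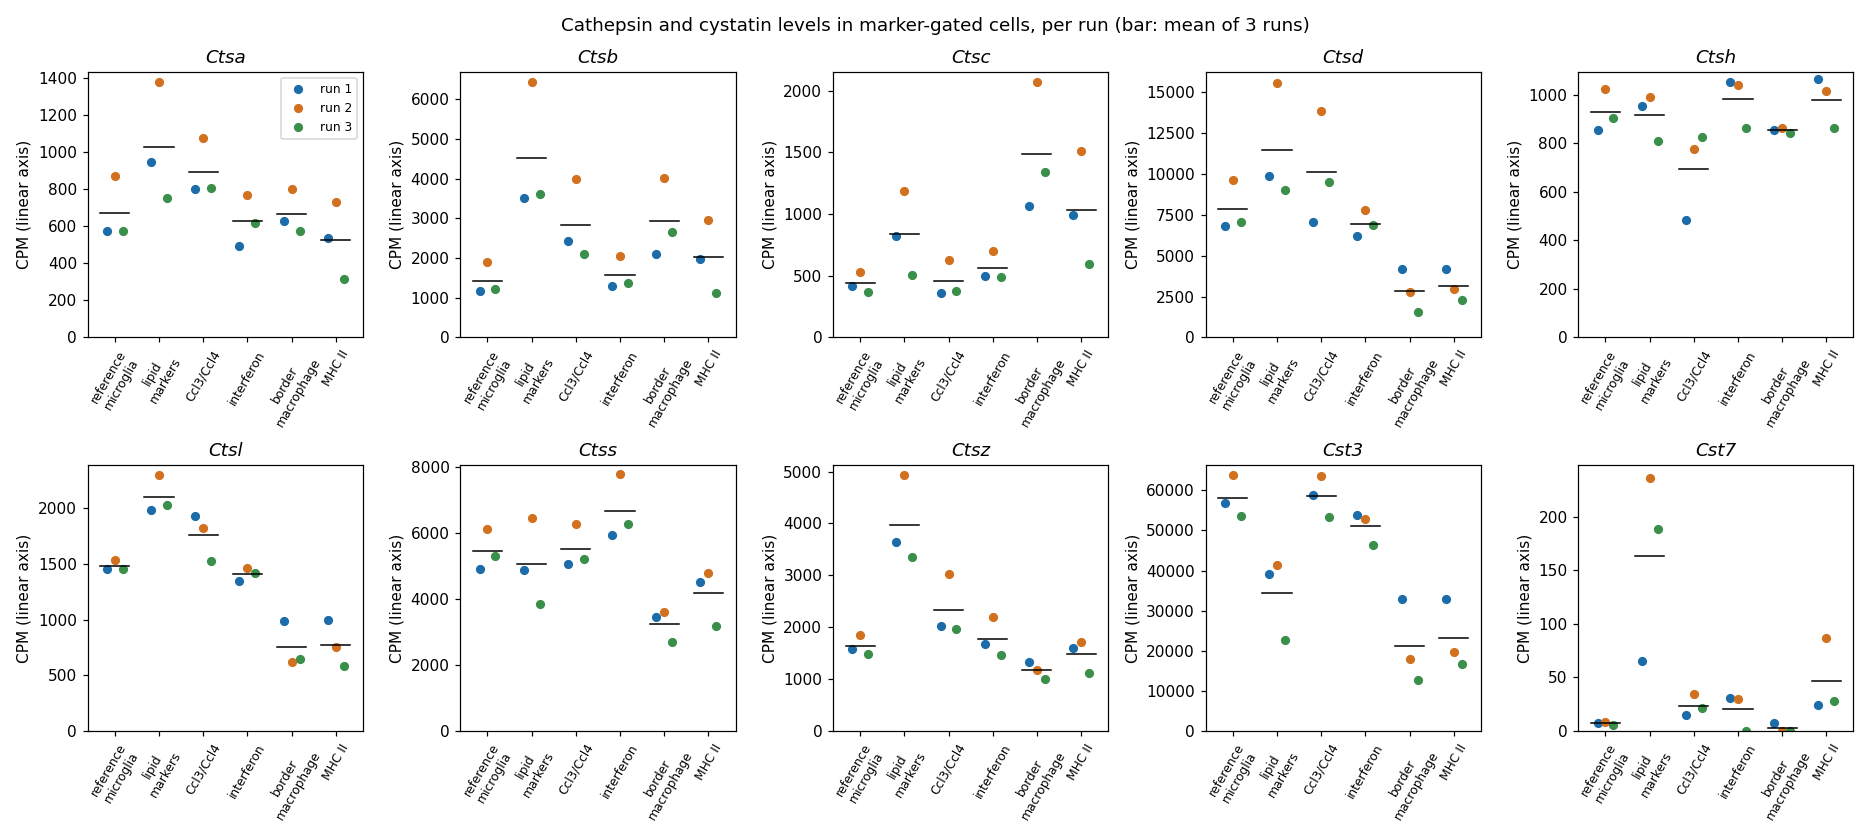
Level of each gene in CPM (linear vertical axis from 0) in reference microglia and 5 marker-gated populations; points are the 3 runs and the bar is their mean. Ctsb and Ctsz were highest in lipid-marker cells, Ctsc in border macrophage cells, and Cst3 was lowest in border macrophage cells.

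Cells with lipid markers held more of most cathepsins than reference microglia, and the inhibitor Cst7 with them. Of the 10 members 7 rose and none fell at an adjusted p under 0.05 (edgeR), against 14.4% of 11311 genes tested, 7.53% higher and 6.86% lower. Ctsb, Ctsz and Ctsc rose most among the proteases, Ctsa, Ctsd and Ctsl rose less, and Ctsh and Ctss did not pass the test. The median change of the members was 0.66 on the log2 scale, against -0.12 over all genes tested. All changes are log2 ratios after TMM scaling, with standard errors.

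Ctsb was at 3513, 6429.6 and 3615 CPM in the lipid-marker cells of runs 1, 2 and 3. The lowest of these values was above the highest of the reference, so the groups did not overlap. The change was 1.73 ± 0.19, which is 3.32-fold, with an adjusted p of 1.05e-16 (edgeR). Ctsz was at 3639, 4926 and 3344 CPM. It too was higher than every reference value in each run, by 1.36 ± 0.19 or 2.57-fold (adjusted p 1.12e-10, edgeR). Ctsc was at 821, 1188 and 508 CPM and rose by 0.97 ± 0.17 (adjusted p 4.32e-07, edgeR). Each run's value was above its own reference, although the value of run 3 lay below the reference of run 2.

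Ctsl was at 1982, 2303 and 2028 CPM and rose by 0.60 ± 0.18 (adjusted p 0.0100, edgeR), with no overlap between the groups. Ctsd was at 9858, 15517 and 9006 CPM and rose by 0.62 ± 0.22 (adjusted p 0.0343, edgeR). Ctsa was at 946, 1379 and 755 CPM and rose by 0.70 ± 0.17 (adjusted p 8.09e-04, edgeR). Ctsd and Ctsa were higher in each run than in the reference of that run, but the groups overlapped across runs. These 3 calls were lost without run 1, without run 2 and without the run as a block, where the changes kept their direction. Without run 1 the adjusted p was 0.201 for Ctsl, 0.554 for Ctsd and 0.111 for Ctsa, and without run 2 it was 0.333, 0.590 and 0.108 (edgeR).

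Ctss was at 4884, 6452 and 3833 CPM, with a change of -0.03 ± 0.20 (adjusted p 0.959, edgeR). Ctsh was at 955, 991 and 808 CPM, with a change of 0.08 ± 0.17 (adjusted p 0.846, edgeR). Both lay on either side of the reference, depending on the run.

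Cst7, the inhibitor that acts inside the cell, was at 65.3, 236 and 189 CPM in lipid-marker cells, from 105 UMIs. Run 1 was the lowest, and it was still above every reference value. The change of 4.51 ± 0.29 (22.7-fold, adjusted p 2.65e-50, edgeR) was the largest among the members. T and NK cells also express Cst7, and in the 13 cells that carried their markers it was at 67.8, 265 and 98.2 CPM, from 8 UMIs. A single cell passed both marker sets. The 8 T and NK markers were all present in the lipid-marker cells, at a summed 43.5, 163 and 3073 CPM in runs 1, 2 and 3, against 8.7 to 16.5 CPM in reference microglia.

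A narrower set, chosen after the cell counts were seen, held the 27, 25 and 14 lipid-marker cells that passed no other marker set. In them 7 of the 8 T and NK markers had no UMI, among them Cd3e and Nkg7, and the list summed to 4.56, 0 and 301 CPM, all from Ccl5. Of the border macrophage markers 6 of 7 had no UMI. Cst7 was at 63.9, 177 and 301 CPM there, with a change of 4.46. Run 3 had the highest level of both Cst7 and Ccl5 in these cells, and the part of T and NK cell RNA was not tested. MHC class II genes summed to 159.6, 149 and 253 CPM in them, against 174, 221 and 182 CPM in the reference. Ccl3 and Ccl4, which the chemokine set could not remove here because it allows at most 1 lipid marker, summed to 729.7, 1218 and 591 CPM in them and to 555, 1464 and 3954 CPM in all lipid-marker cells, against 12.5, 23.1 and 50.6 CPM in the reference. Their part in these rises was not tested. Ctsb was at 4100.2, 7029 and 5498 CPM, Ctsz at 4128, 5104 and 5124 CPM and Ctsd at 11785, 18376 and 15287 CPM. All 7 rises were called in these cells. The share of all genes called is not given for them, so the 7 have no background to be read against.

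Cst3, the secreted inhibitor, was at 39211, 41466 and 22618 CPM in lipid-marker cells. All 3 values lay below every reference value, and run 3 was far below the other two. The change of -0.70 ± 0.27 did not pass the test (adjusted p 0.0642, edgeR). It did without run 3 (-0.52, adjusted p 2.67e-05, edgeR) and in cells of that marker set alone (-0.51, adjusted p 4.70e-06, edgeR), in which Cst3 was at 43497, 48674 and 32359 CPM. Cst3 was also called lower with DESeq2 and with no filter on low counts, so 4 of 10 alternatives called it. MHC class II genes summed to 1621, 5157 and 9916 CPM in the lipid-marker cells of runs 1, 2 and 3, and microglia markers to 17121, 22177 and 11096 CPM, and their part in the value of run 3 was not tested.

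**Figure D2:**
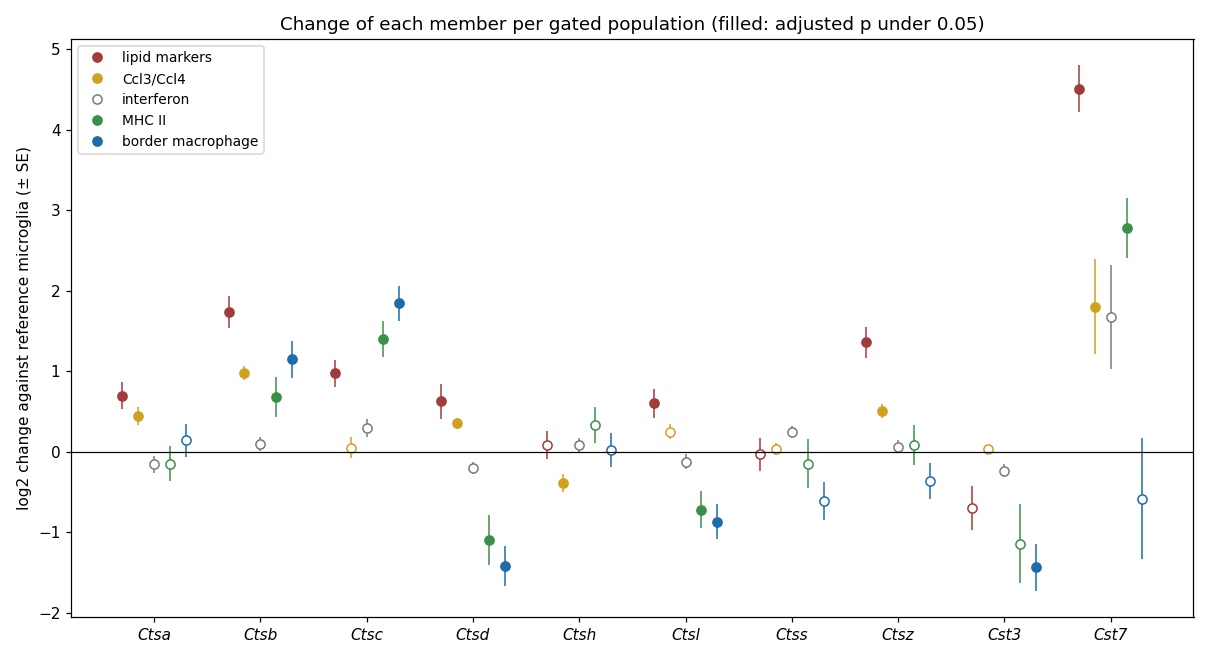
Log2 change against reference microglia (vertical axis, points with ± SE bars) for the 10 genes in 5 populations; filled points passed an adjusted p of 0.05. Lipid-marker cells have 7 filled points above 0, border macrophage cells have 2 above and 3 below, and interferon cells have none.

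Among the other genes of the pathway, the cytosolic inhibitor Cstb rose as well. Cstb was at 277, 338 and 459.7 CPM in lipid-marker cells against 62.3, 64.0 and 61.1 CPM, a rise of 2.59 ± 0.17 (adjusted p 7.72e-52, edgeR), and it was the only called gene of the 3 tested among 20 listed other inhibitors. Of the 10 listed lysosomal partners and processing genes 9 were tested and 4 rose. They were Npc2, which carries cholesterol (0.87 ± 0.17), the membrane protein Lamp1 (0.71 ± 0.18), the sphingolipid activator precursor Psap (0.69 ± 0.19) and progranulin, Grn (0.66 ± 0.18). Both other cathepsins tested, of 15 listed, fell, Ctso (-0.80 ± 0.23) and Ctsf (-0.68 ± 0.18). Of 11 sorting genes tested, the receptor Sort1 fell (-0.69 ± 0.24) and none rose. Of 6 regulators of lysosomal genes tested, from a list of 7 with Tfeb, Tfe3 and Mitf, 2 had an unadjusted p under 0.05 and edgeR called none after adjustment. The lists were written from general knowledge with earlier results known.

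The rises were also seen when cells were divided by how many lipid markers they held. Cells with at least 2000 UMIs were thinned to 2000 UMIs each, so that all had the same depth. Markers were counted after thinning. Thinned cells of marker sets other than the lipid and chemokine sets were left out, so cells rich in Ccl3 and Ccl4 were kept. Cells that passed another set only at full depth could stay. The interferon set, for example, was passed by 157 cells at full depth and by 61 thinned cells. The remaining cells with microglia markers were used. They were counted as having 0, 1 or at least 2 markers (6321, 5822 and 5380 cells with 0, 352, 363 and 320 with 1, and 38, 36 and 26 with at least 2 in runs 1, 2 and 3). Ctsb was at 1120.5, 1803 and 1180.4 CPM with 0 markers, 1675, 2826 and 1703 CPM with 1 and 3605, 6986 and 4635 CPM with at least 2. Ctsz was at 1607 ± 182, 2138 ± 247 and 4558 ± 618 CPM (SD, n = 3) in that order. Both were higher at each of these steps in every run. Only 5, 9 and 4 of the cells in the top class had 3 or more markers, and in them Ctsb was at 2500.0, 8722 and 3750.0 CPM against 3773, 6407 and 4795 CPM with exactly 2, lower in runs 1 and 3. Ctsz was at 3300.0, 6278 and 5125 CPM against 4061, 4833 and 4409 CPM, lower in run 1, and Cst7 had no UMI there in runs 1 and 3.

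Ctsd was at 7674 ± 1528, 8843 ± 1454 and 13962 ± 3786 CPM, Ctsl at 1465 ± 44.6, 1655 ± 78.8 and 2319 ± 84.2 CPM, and Ctsa at 659 ± 163, 744 ± 241 and 1173 ± 199.8 CPM. These 3 and Ctsc (442 ± 78.8, 538 ± 92.7 and 708 ± 253 CPM) were also higher at each step in every run. Cst7 was at 5.56 ± 0.536 CPM with 0 markers, 18.6 ± 6.68 CPM with 1 and 107 ± 57.6 CPM with at least 2, from 196, 39 and 20 UMIs. Cst3 went the other way, from 57477 ± 4952 through 54832 ± 4956 to 43579 ± 6622 CPM, and was lower at each step in every run. Ctss (5420.3 ± 618, 5659.6 ± 652 and 5490.0 ± 646 CPM) and Ctsh (937 ± 79.7, 989.6 ± 102 and 929 ± 28.8 CPM) had no such order. Many of these cells are also in the comparison above, so the values add no independent test. The part of the chemokine cells, which were kept here, was not tested, nor was that of cells that passed another set only at full depth.

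**Figure D3:**
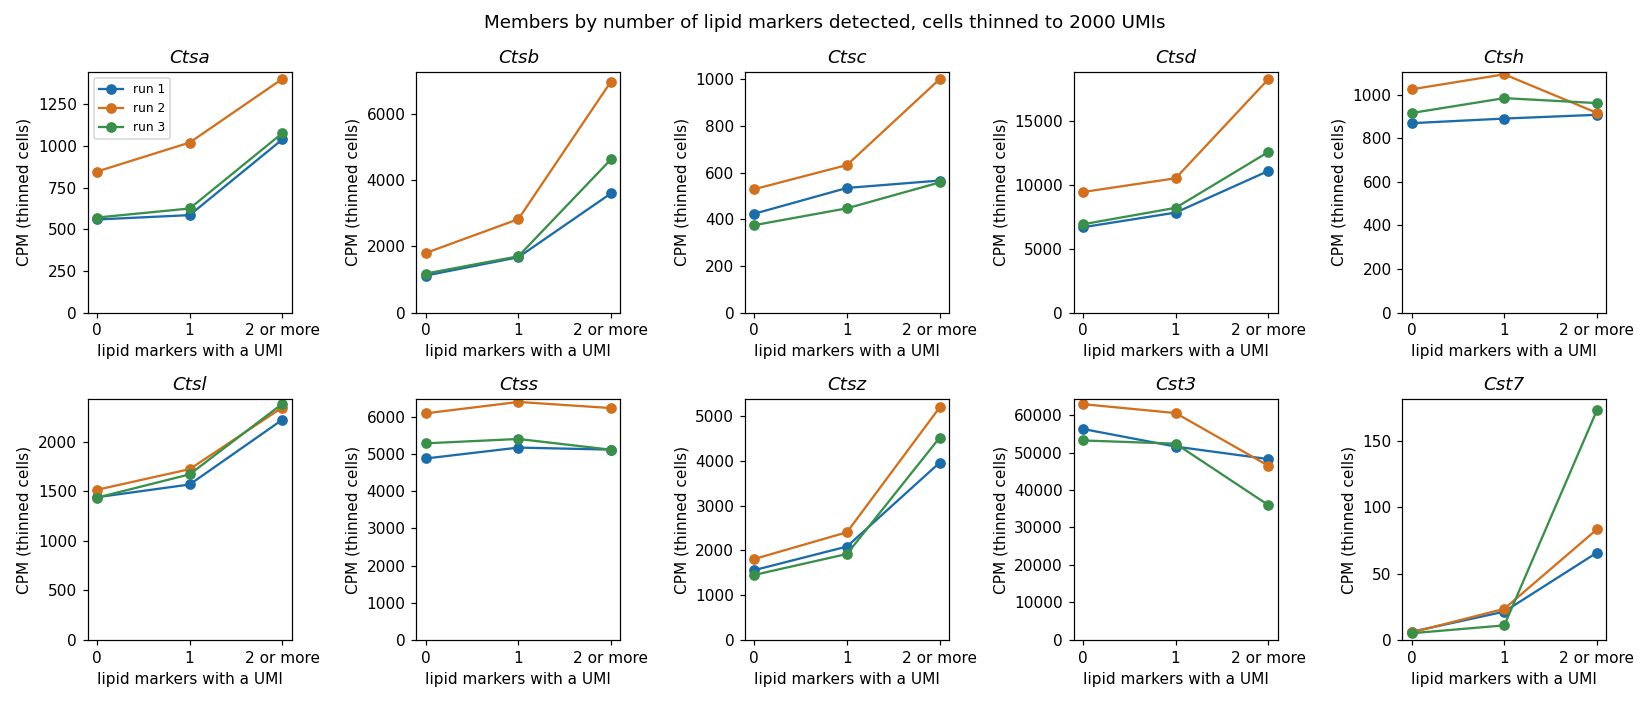
Level of each gene (CPM, linear axis from 0, cells thinned to 2000 UMIs) in cells with 0, 1 or at least 2 lipid markers; each line is a run. Ctsa, Ctsb, Ctsc, Ctsd, Ctsl, Ctsz and Cst7 are higher at each step in all 3 runs, Cst3 is lower, and Ctsh and Ctss have no common order.

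Cells rich in Ccl3 and Ccl4 held more Ctsb than reference microglia, with smaller rises of Ctsz, Ctsa and Ctsd. Of the 10 members 5 rose and 1 fell, against 4.5% of 11140 genes called in either direction (edgeR), 2.63% higher and 1.87% lower. The median change of the members was 0.30, against -0.11 over all genes. Ctsb was at 2433, 3997 and 2092 CPM, above the reference in every run without overlap, a rise of 0.98 ± 0.09 or 1.97-fold (adjusted p 1.87e-25, edgeR). Ctsz was at 2014, 3018 and 1969 CPM and rose by 0.51 ± 0.09 (adjusted p 2.18e-06), also without overlap. Ctsa rose by 0.44 ± 0.11 (adjusted p 0.00298) and Ctsd by 0.35 ± 0.07 (adjusted p 3.00e-05), where the groups overlapped across runs.

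Ctsh was at 484, 775 and 827 CPM in chemokine cells, below every reference value, and fell (-0.39 ± 0.11, adjusted p 0.0149, edgeR). Cst7 was at 14.4, 34.0 and 21.7 CPM from 13 UMIs, a rise of 1.80 ± 0.59 with an adjusted p of 0.0486 (edgeR). Of 12 alternatives, the call for Cst7 was kept in 3 and that for Ctsh in 4, and DESeq2 called neither. Cst3 (58623 ± 5189 CPM), Ctss, Ctsl and Ctsc did not pass the test. Without the run as a block edgeR called none of the members, and without run 2 or with cells thinned to 2000 UMIs only Ctsb was called. Immediate early genes summed to 664, 754 and 1355 CPM in chemokine cells of runs 1, 2 and 3, against 27.9, 43.2 and 436 CPM in the reference, and their part in these changes was not tested. Of the other lists, Cstb (1.57 ± 0.20), Neu1, the neuraminidase that Ctsa stabilises (0.84 ± 0.24), Npc2 (0.49 ± 0.11) and the sorting adaptor Gga2 (1.49 ± 0.45) rose, and Rragd, which has few UMIs, was also called.

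The lipid-marker and chemokine cells were then compared directly, in all cells that passed either set. Ctsz and Cst7 were higher in lipid-marker cells, 2 of 10 members, against 7.36% of 3344 genes called (3.38% higher, 3.98% lower). Chemokine cells had 1962, 2539 and 1910.1 CPM of Ctsz and 22.8, 23.2 and 23.6 CPM of Cst7 here, and neither gene's groups overlapped. The difference was 0.94 ± 0.23 for Ctsz (adjusted p 0.0282, edgeR) and 2.88 ± 0.36 for Cst7 (adjusted p 4.50e-04, edgeR). Ctsb differed by 0.80 ± 0.23, which missed the threshold (adjusted p 0.0535, edgeR). Cstb was higher by 1.20 ± 0.30 (adjusted p 0.0300). The call for Ctsz was lost without run 1, without run 2 and without the block. In cells of a single marker set 7 of the 9 members tested were called. Ctsa, Ctsb, Ctsc, Ctsd, Ctsl and Ctsz were higher and Cst3 lower, while Cst7 was not tested there. The share of all genes called is not given for these cells, so the 7 have no background to be read against.

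Cells with border macrophage markers had a different balance of proteases, with more Ctsc and Ctsb and less Ctsd, Ctsl and Cst3. Of the 10 members 2 rose and 3 fell, against 12.7% of 11469 genes called (7.68% higher, 4.98% lower). The median change was -0.47, against -0.10 over all genes. Ctsc was at 1064, 2066 and 1336 CPM, 3.59-fold higher than in reference microglia (1.85 ± 0.22, adjusted p 1.08e-15, edgeR). Ctsb was at 2105, 4024 and 2661 CPM and rose by 1.15 ± 0.23 (adjusted p 9.64e-06, edgeR). Neither gene's groups overlapped, and run 2 was the highest for both.

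Ctsd was at 4160.3, 2802 and 1568 CPM in border macrophage cells, 2.67-fold lower than in reference microglia (-1.42 ± 0.25, adjusted p 3.08e-07, edgeR). Ctsl was at 987, 621 and 646 CPM (-0.87 ± 0.22, adjusted p 0.00105, edgeR). Cst3 was at 32957, 17944 and 12725 CPM (-1.44 ± 0.30, 2.71-fold lower, adjusted p 2.40e-05, edgeR). All values of these 3 genes were below every reference value, and run 1 was the nearest to the reference in each. Ctss (-0.62 ± 0.24) and Ctsz (-0.37 ± 0.22) had values below all of the reference in the 3 runs but did not pass the test, with adjusted p values of 0.0646 and 0.336 (edgeR). Ctsa and Ctsh had changes of 0.14 ± 0.21 and 0.02 ± 0.21, and Cst7 had 6 UMIs, all in run 1.

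In run 1, 31.7% of the border macrophage cells (26 of 82) held UMIs of both Xist and Y-linked genes, against 2.86% and 5.56% in runs 2 and 3, and the microglia marker P2ry12 was at 2291, 940.4 and 358 CPM in runs 1, 2 and 3. Without run 1 the change of Ctsd was -1.81 and that of Cst3 -1.79, and 7 members were called, Ctss and Ctsz among those lower. Without run 2 Ctsb, Ctsc and Ctsd were called, and without run 3 only Ctsc. In the 30, 17 and 28 cells of this set alone Ctsl was not called (-0.70, adjusted p 0.101, edgeR), and Ctss was. With the mixed cells removed, the 5 calls held and Ctss was called lower as well.

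Of the other lists, the serpin Serpinb6a, an inhibitor of serine proteases, was at 63.1, 109 and 89.6 CPM against 10.1, 9.20 and 9.62 CPM and rose by 3.18 ± 0.29 (adjusted p 1.28e-26, edgeR). Cstb rose by 1.24 ± 0.22, Neu1 by 0.85 ± 0.23 and Npc2 by 0.58 ± 0.21. Legumain (Lgmn), which cleaves cathepsin precursors to their mature form, was at 2972, 2674 and 1934 CPM against 4231, 5983 and 4119 CPM and fell (-0.79 ± 0.23, adjusted p 0.00870, edgeR). Ctsf (-1.10 ± 0.22) and Sort1 (-0.82 ± 0.25) fell as well. Ctse and the transcription factor gene Tfec were also called higher, below the level of 20 CPM set for named genes.

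Border macrophage and lipid-marker cells were set against each other, in a comparison added after the levels were seen, with cells of a single marker set (30, 17 and 28 against 27, 25 and 14 cells). Ctsc was higher and Ctsd, Ctsl, Ctss and Ctsz were lower in border macrophage cells, 5 of 9 members tested, against 11% of 2211 genes (6.78% higher, 4.21% lower). Ctsc was at 951, 2082 and 1496 CPM against 698, 1097 and 687 CPM (0.88 ± 0.25, adjusted p 0.0394, edgeR). Ctsz was at 1354, 892 and 1046 CPM against 4128, 5104 and 5124 CPM (-2.05 ± 0.27, adjusted p 1.60e-04, edgeR) and Ctsd at 5081, 2770.2 and 1782 CPM against 11785, 18376 and 15287 CPM (-2.28 ± 0.36, adjusted p 6.43e-04, edgeR). The groups overlapped for Ctsc alone among these. Ctsb was also raised in both populations against the reference, and between them it differed by -0.68 ± 0.25 (adjusted p 0.109, edgeR). Without run 2 only Ctsz and Cst7 were called, without run 3 Ctsd, Ctsz and Cst7, and without run 1 all members tested but Ctsh were. The call for Ctsc was kept in 3 of 8 alternatives and was also lost with DESeq2, with no filter on low counts and without the block. Of these border macrophage cells 30%, 0% and 7.14% held both Xist and Y-linked UMIs in runs 1, 2 and 3. The shares in these lipid-marker cells were 7.41%, 4% and 0%. With such cells removed, the 5 calls held.

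Cells with MHC class II genes held more Ctsc and less Ctsd and Ctsl than reference microglia, and a rise of Cst7 depended on which cells were kept. Of these cells, 66 also had border macrophage markers, which is 38.6% of the border macrophage and 37.9% of the MHC class II cells. Border macrophage markers summed to 2198, 1994 and 808 CPM in runs 1, 2 and 3 and monocyte markers to 125, 616 and 1195 CPM, against at most 7.66 CPM of either list in the reference, and their part in the changes was not tested. Lipid markers summed to 385, 841 and 1223 CPM, against 37.5, 46.9 and 38.2 CPM in the reference. Both the lipid and the MHC class II set were passed by 14 cells, and the part of lipid-marker cells in the rise of Cst7 was not tested. Of the 10 members 3 rose and 2 fell, against 17.8% of 11484 genes called (10.6% higher, 7.19% lower), with a median of -0.03 against -0.09 over all genes. Ctsc was at 993, 1509 and 596 CPM (1.40 ± 0.22, adjusted p 7.32e-09, edgeR), above every reference value. Cst7 was at 24.3, 86.7 and 27.8 CPM from 47 UMIs (2.77 ± 0.37, adjusted p 2.71e-12, edgeR), also above all of the reference. Ctsb was at 1981, 2969 and 1126 CPM (0.68 ± 0.25, adjusted p 0.0404, edgeR), where run 3 was below its own reference. This call for Ctsb was kept in 4 of 13 alternatives, with changes down to 0.20. It was lost with any run left out, without the block, with no filter on low counts, under the stricter cell filter, with 1 more marker, without cells with astrocyte UMIs and in cells of this set alone.

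Ctsd (4166, 2948 and 2261 CPM, -1.10 ± 0.32, adjusted p 0.00435, edgeR) and Ctsl (993, 749.9 and 578 CPM, -0.72 ± 0.23, adjusted p 0.0159, edgeR) fell, without overlap. Cst3 was at 32781, 19655 and 16676 CPM, below every reference value, and did not pass the test (-1.14 ± 0.49, adjusted p 0.0912, edgeR). Over 13 alternatives its change ran from -1.75 to -0.89, and 6 of them called it lower. These were DESeq2, thinning, no block, run 1 left out, and removal of mixed-sex or of astrocyte-marker cells. Ctss, the protease that trims the invariant chain of MHC class II, was also below every reference value, at 4514, 4790.1 and 3184 CPM, and was not called (-0.15 ± 0.30, adjusted p 0.820, edgeR). In the 22, 15 and 21 cells of this set alone, only Ctsc (0.81) and Ctsl (-0.75) were called, and Cst7 was not called there, with a change of 2.15. Cst7 was also not called in cells thinned to 2000 UMIs (1.99, adjusted p 0.218, edgeR) or without cells with astrocyte UMIs (0.83, adjusted p 0.593, edgeR), and Ctsl was not without the block. Without run 2 or without run 3 only Ctsc and Cst7 were called.

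Of the other lists, Cstb (1.36 ± 0.20) and Npc2 (0.83 ± 0.22) rose in MHC class II cells, and Serpinb6a was also called higher. Lgmn was at 2755, 2163 and 1273 CPM against 4231, 5983 and 4119 CPM and fell (-1.01 ± 0.29). Ctsf (-1.12 ± 0.21), Sort1 (-0.83 ± 0.24), the galactosidase Glb1 (-0.81 ± 0.29) and the transcription factor Tfe3 (-0.71 ± 0.22) fell too, with adjusted p values up to 0.0304 (edgeR).

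In interferon-stimulated cells no member passed the threshold in edgeR, against 1.98% of 11158 genes called (1.68% higher, 0.305% lower), while 5 had an unadjusted p under 0.05 and DESeq2 called Ctss. Ctss was at 5935, 7800.0 and 6275 CPM, above its own reference in each run, with a change of 0.24 ± 0.07 (adjusted p 0.0597, edgeR). Cst3 was at 53937, 52760.0 and 46376 CPM, below its reference in each run (-0.24 ± 0.08, adjusted p 0.111, edgeR). The changes of the other cathepsins ran from -0.21 for Ctsd to 0.29 for Ctsc, and Cst7, with 11 UMIs, had a change of 1.67 ± 0.64 (adjusted p 0.279, edgeR). When cells of several marker sets were kept, 6 of the 10 members were called, Ctsb, Ctsc and Cst7 higher and Ctsd, Ctsl and Cst3 lower. Far more genes outside the members were called there as well, with the count given further on. Their share of all genes tested is not given, so the 6 have no background to be read against. Those cells included 38 that passed the MHC class II set, which is 24.2% of the 157, and 34 with border macrophage markers (21.7%). The part of either in these calls was not tested.

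The populations were also ordered by mean level, here with every cell that passed each marker set, chemokine and interferon cells included. For Ctsc the order was border macrophage (1489 ± 518 CPM, SD), MHC class II (1032 ± 458), interferon (964 ± 294), lipid-marker (839 ± 340.3), chemokine (522 ± 141) and reference cells (439.6 ± 79.3). Neighbours in that order overlapped in their values per run, and in cells of a single set lipid-marker cells (827 ± 234) came before MHC class II (799.7 ± 401) and interferon cells (563 ± 119). For Ctsb the order was lipid-marker (4519 ± 1655), border macrophage (2930.1 ± 987), chemokine (2670.2 ± 892), MHC class II (2025 ± 923), interferon (2012 ± 407) and reference cells (1432 ± 408), with overlap between all neighbours, and single-set cells gave the same order. Ctsd and Ctsl shared an order, lipid-marker, chemokine, reference, interferon, MHC class II and border macrophage cells. In single-set cells Ctsl departed from it, with border macrophage (959 ± 216) before MHC class II cells (905 ± 345). For Ctsd the values did not overlap between reference (7816 ± 1544) and interferon cells (5184 ± 173) or between interferon and MHC class II cells (3125 ± 965), and in single-set cells only the second of these gaps was free of overlap.

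The balance between inhibitor and protease transcripts was also taken. Cst3 UMIs were divided by the summed UMIs of the 6 cysteine cathepsins, a ratio of transcripts and not of proteins. It was 5.48, 4.92 and 5.0 in reference microglia of runs 1, 2 and 3 (5.13 ± 0.304, SD). In lipid-marker cells it was 2.48, 1.86 and 1.60 (1.98 ± 0.453), in border macrophage cells 3.37, 1.45 and 1.39 (2.07 ± 1.12) and in MHC class II cells 2.94, 1.54 and 2.24 (2.24 ± 0.701). All of these values were below every reference value. The chemokine cells had 4.37 ± 0.477 and the interferon cells 3.98 ± 0.561, also below the reference in each run. The same ratio for Cst7, which had few UMIs, was 6.1e-04 ± 7.07e-05 in reference microglia. It was higher in lipid-marker (0.00936 ± 0.00473) and MHC class II cells (0.00424 ± 0.00235). The means were 0.00168 ± 4.55e-04 in chemokine, 0.00151 ± 0.00134 in interferon and 2.43e-04 ± 4.21e-04 in border macrophage cells. With 3 runs an exact paired permutation test cannot go below a two-sided p of 0.25, so none was run.

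**Figure D4:**
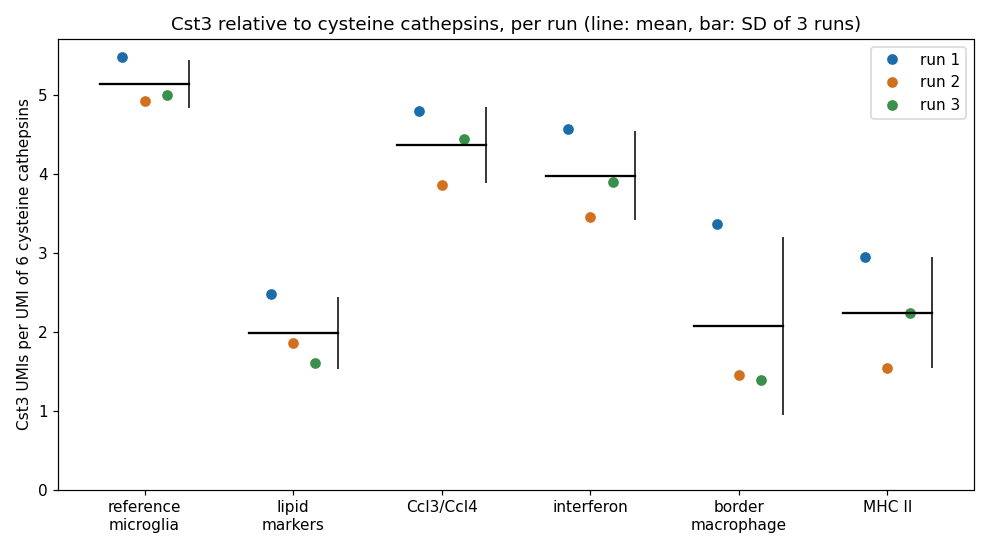
Cst3 UMIs per UMI of the 6 cysteine cathepsins (linear axis from 0) in each population; points are runs, the line is the mean and the bar the SD of 3 runs. Reference microglia lie at 4.92 to 5.48, lipid-marker cells at 1.60 to 2.48.

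The share of cells with a Cst7 UMI, in cells thinned to 2000 UMIs, was 1.26%, 1.18% and 0.982% of reference microglia in runs 1, 2 and 3 and 7.89% (3 of 38), 20% (6 of 30) and 26.9% (7 of 26) of lipid-marker cells. The exact 95% binomial intervals of the lipid-marker cells were 1.66 to 21.4%, 7.71 to 38.6% and 11.6 to 47.8%, and they cover counting error only. Each lay above that of the reference in its run, 1.00 to 1.56%, 0.923 to 1.48% and 0.738 to 1.28%. Without thinning the shares were 2.75%, 2.33% and 1.87% in reference microglia and 28.9%, 40% and 46.2% in lipid-marker cells, whose median depth was 7163, 5559 and 6293 UMIs against 4395, 3423 and 3669.5 UMIs. In the 61 cells with choroid plexus markers, an epithelium that should lack Cst7, 1 UMI was counted at a median depth of 4383, 2880 and 1822 UMIs. The share in reference microglia is not read as expression. Ctsb, in contrast, was found in 86.5%, 94.9% and 87.2% of thinned reference microglia.

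Reference microglia were also divided by sex-linked transcripts, with 2583, 3408 and 2368 cells that had Xist and 2238, 1296 and 1539 cells that had Y-linked UMIs in runs 1, 2 and 3. No member differed in edgeR, against 0.639% of 11268 genes called (0.355% higher and 0.284% lower with Y-linked UMIs), nor in DESeq2, and 1 had an unadjusted p under 0.05. That gene was Ctsc, at 406, 499.8 and 348 CPM in cells with Xist and 431, 537 and 392 CPM in cells with Y-linked UMIs. The level was higher with Y-linked UMIs in each run, by 0.12 ± 0.04 (adjusted p 0.281, edgeR), and the groups overlapped across runs. Whether the changes of lipid-marker or chemokine cells differed by sex was not tested, since a run held as few as 5 lipid-marker cells of a class.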

How the data were processed

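Single tdTomato+ cells from hippocampi of 3 runs were measured with 10x Genomics reagents, and the deposited tables hold raw UMI counts per gene and barcode. Per the submitters' processing notes Cell Ranger and mm10 were used, and per the file headers the software version was 3.0.2 for run 1 and 3.1.0 for runs 2 and 3. The selection of barcodes and the treatment of reads that match several genes are not given in the sources used here.

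A cell needed 1000 UMIs, 500 genes and no more than 10% mitochondrial UMIs, and the median depth was then 4425 (run 1), 3438 (run 2) and 3696 UMIs (run 3). Populations were gated by marker UMIs, and 1 listed marker of the lipid set was not used. Chemokine cells had at least 5 Ccl3 and Ccl4 UMIs, at least 10 per 10000 UMIs, and at most 1 lipid marker. For each run the UMIs of a population were added up, and the sums were tested with edgeR 4.0.16 (TMM, filterByExpr, glmQLFit, glmQLFTest) with p-values adjusted by Benjamini and Hochberg's method over every tested gene, at a threshold of 0.05, where each run held at least 20 cells. Tests on cells of a single set, among them border macrophage against lipid-marker cells, were added with a minimum of 10 cells. CPM values were computed here from the sums and their total UMIs. The run was a block because a library gives both sums compared. In the comparison of lipid-marker cells the paired deviations correlated at 0.151 to 0.246, a value taken over genes, which are no replicates. The prior degrees of freedom were infinite in each comparison with reference microglia, so all genes shared the spread.

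The members, lists, gates and tests were chosen with earlier results of these data known. All members are named in each comparison. Of the lists, at most 5 genes per direction are named, those with the largest change at an adjusted p under 0.05, at least 20 CPM and the same direction in the 3 runs. Likeness of patterns used Pearson correlation of log2(CPM + 1). Of 31053 gene IDs, 99.6% were found in GENCODE M21. Alternatives were DESeq2 1.42.0, RLE size factors, no filter on low counts, no block, each run left out, a stricter cell filter (2000 UMIs, 1000 genes, 5% mitochondrial), thinning to 2000 UMIs, 1 more marker, cells of several or of a single set, and removal of mixed-sex or astrocyte-marker cells. The tests were checked on simulated data.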

Additional observations from a re-analysis of the deposited data

How the results depend on the processing

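Over all comparisons and alternatives, 673 log2 changes of members kept their direction and their side of the threshold. Of the others, 58 passed the threshold only under the alternative, 76 lost it and 32 changed sign. Counts of genes, shares of cells and inhibitor ratios are not among these values. Ctsb, Ctsc, Ctsz and Cst7 were called higher in lipid-marker cells under all 10 alternatives run. No cause of the moves that follow was tested. Fewer runs and thinned cells leave fewer UMIs to test.

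Without the run as a replicate block, the count of genes called went from 1628 to 804 for lipid-marker cells, from 501 to 88 for chemokine cells, from 221 to 140 for interferon cells, from 1452 to 822 for border macrophage cells, from 2047 to 1349 for MHC class II cells, from 246 to 119 for lipid-marker against chemokine cells and from 72 to 5 between sex-linked classes. Members called went from 7 to 4, from 6 to 0 and from 2 to 1 in the lipid-marker, chemokine and direct comparison. DESeq2 called 973 (lipid-marker), 241 (chemokine), 936 (border macrophage), 82 (lipid-marker against chemokine), 142 (border macrophage against lipid-marker) and 20 genes (sex-linked classes). With no filter on low counts the last 3 were 374, 375 and 129.

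With 1 run left out, genes called ranged from 978 to 1236 for lipid-marker, 195 to 315 for chemokine, 629 to 1589 for border macrophage and 1008 to 2050 for MHC class II cells, from 131 to 231 for lipid-marker against chemokine and 99 to 445 for border macrophage against lipid-marker cells, and from 36 to 70 between sex-linked classes. Members called ranged from 4 to 8, 1 to 4, 1 to 7, 2 to 5, 1 to 6 and 2 to 9 in the first 6 of these comparisons. Thinning gave 206 genes for chemokine cells (1 member), 893 for border macrophage cells, 1123 for MHC class II cells and 31 for sex-linked classes, where leaving out cells with astrocyte UMIs also gave 31. Cells of a single marker set gave 626 genes for border macrophage cells and 438 for MHC class II cells (2 members). They gave 7 of 9 members tested for lipid-marker against chemokine cells, with no share of all genes to set beside it. Removal of mixed-sex cells gave 365 genes and 8 members for border macrophage against lipid-marker cells. A lipid set of at least 2 markers gave 2454 genes. Interferon cells gave 1171 genes and 6 members with cells of several sets kept, 2 members with RLE factors and with mixed-sex cells removed, and 1 member with DESeq2, with no filter and with the stricter cell filter. The mean share of cells with Cst7 was 0.595% of reference microglia thinned to 1000 UMIs and 29.6% of lipid-marker cells with 1 more marker.

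Signs changed only for changes that were not called. In the main fit these were near 0, except for Cst7 in border macrophage cells (-0.58 ± 0.75, from 6 UMIs). In lipid-marker cells Ctss was 0.034 with DESeq2, 0.034 with RLE factors, 0.025 in single-set cells, 0.049 without mixed-sex cells and -0.12 to 0.10 with a run left out, and Ctsh was -0.14 in single-set cells. In chemokine cells Cst3 was -0.13 and Ctss -0.049 when thinned, Ctss -0.026 under the stricter filter and Ctsc -0.062 to 0.15 with a run left out. In interferon cells Ctsh was -0.10 to 0.17 with a run left out. In border macrophage cells Ctsh was -0.017 with no filter, -0.26 when thinned, -0.040 with 1 more marker, -0.31 in single-set cells and -0.020 to 0.084 with a run left out, and thinning gave Cst7 0.12 and Ctsa -0.071. In MHC class II cells Ctsz was -0.29 when thinned, -0.32 without astrocyte UMIs and -0.061 in single-set cells, and Ctsa was -0.29 to 0.035 with a run left out. Ctss was 0.025 in single-set lipid-marker against chemokine cells. Between sex-linked classes Ctss was -0.00704 with no filter, and with a run left out Ctss was -0.021 to 0.048, Cst3 -0.025 to 0.080, Ctsd -0.017 to 0.043, Ctsh -0.017 to 0.060, Ctsb -0.043 to 0.00137 and Ctsl -0.058 to 0.010.

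Thinning, the stricter filter, 1 more marker and removal of astrocyte UMIs were not run where a run would hold too few cells, in the lipid-marker and, in part, the chemokine and interferon comparisons. DESeq2 gave no adjusted p for Cst7 in lipid-marker against chemokine cells and between sex-linked classes. A Cst7 share in a population of this size has a wide counting interval, which limits its comparison between runs.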

Other observations

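Some populations had too few cells in a run for a test, and their levels stand here as values, in every cell that passed the marker set. Cells with at least 3 of 10 cell cycle genes (40, 13 and 19 in runs 1, 2 and 3) held Ctsd at 4335, 5281 and 4979.6 CPM and Ctsl at 910.3, 986 and 896 CPM, below the reference of the same run in each case. Ctsc was at 645, 816 and 389 CPM in them, above the reference of each run, and Ctsb at 1109, 1133 and 1166 CPM, below it. Cells with the 3 transcripts Emp3, Fxyd5 and Tnfsf13b (37, 18 and 33), which carry no cell type name, held Cst3 at 43328, 44234 and 28423 CPM, Ctsd at 5552, 7630.3 and 4369 CPM and Ctsc at 862, 901 and 445 CPM. In these cells Cst3 and Ctsd were below and Ctsc above the reference in every run.

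Cells with at least 4 of 8 immediate early genes came mostly from run 3 (11, 15 and 159 cells) and held Ctsb at 1583, 2765 and 1365 CPM and Cst3 at 49493, 53911 and 43738 CPM. Microglia that also carried astrocyte transcripts (98, 36 and 15 cells) held Cst3 at 47701, 57103 and 46283 CPM and Ctsb at 1439, 1745 and 1290.0 CPM. Astrocytes themselves express Cst3, and it was lower in these cells than in the reference of each run.

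The genes whose mean level was most like that of a member were sought across 6 populations (every cell that passed each set) and 7360 genes with at least 20 CPM in one of them, with marker genes left out. Among the members, Ctsd and Ctsl were each other's nearest match (Pearson r of log2 levels 0.996). Ctsa was nearest to Cd68, a lysosomal membrane protein of macrophages (0.995), which was at 804 CPM in reference and 1414 CPM in lipid-marker cells. Ctsb was near mt-Nd4 (0.983) and Cd63 (0.976), and Ctsc was nearest to Clec10a (0.996), Msr1 (0.995) and Dab2 (0.993), which were highest in border macrophage cells. Ctsh was nearest to Hes6 (0.980), Ctsl next to Lyst (0.992), Ctss to Tefm (0.992), Ctsz to Nudc (0.994), Cst3 to Csnk1e (0.998) and Cst7 to Abcf1 (0.983) and Psap (0.981). With 6 points that share libraries and cells, such values describe the pattern and have no test.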
